A study of Homo sapiens with 32 samples.

Results

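The 10 genes described here encode the subunits of the hypoxia-inducible factors (HIFs) and the enzymes that sense oxygen for them: HIF1A, EPAS1, HIF3A, ARNT, ARNT2, EGLN1, EGLN2, EGLN3, HIF1AN and VHL. They were taken by symbol from 19815 protein-coding genes among 60554 genes in the files, and each symbol matched 1 row. MCF10A allowed a test of all 10 and MDA-MB-231 of 9, since HIF3A had 0 to 3 counts in each library of the latter and was left out by the filter on low counts.

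HIF is a dimer of an oxygen-regulated alpha subunit and a stable beta subunit. With oxygen present, prolyl hydroxylases of the EGLN family mark the alpha subunit, the VHL ubiquitin ligase binds the mark and the protein is degraded, while HIF1AN (FIH) hydroxylates an asparagine and so blocks the binding of coactivators. In low oxygen these reactions slow, the alpha subunit accumulates, mostly through its protein rather than its mRNA, and the dimer binds DNA at a short core, ACGTG or GCGTG. EGLN1 and EGLN3 are themselves known HIF target genes. RNA-Seq reads the mRNA alone, so the values below say nothing of HIF protein.

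The libraries came from MCF10A, an immortalised, non-tumourigenic breast epithelial line, and MDA-MB-231, a triple-negative breast cancer line. Cells of each line were kept in normoxia with vehicle (N), in hypoxia for 24 hours at 0.5% O2 (H), in normoxia with PP242 (NPP) or in hypoxia with PP242 (HPP). PP242 blocks the ATP site of the mTOR kinase and was present at 2.5 µM for 3 hours. Total RNA (T) and RNA from the polysomal part of a sucrose gradient (P) gave 2 biological replicates in each of 8 groups per line, and 32 libraries in all. The shallowest library held 18340916 counts, the deepest 46032327 and the median library 34561484.

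Some libraries and markers stood apart. CDH1 (E-cadherin) and TP63, which define breast epithelial and basal cells, reached at most 0.361 and 0.226 CPM (counts scaled to a common library size) in MCF10A, which goes against its epithelial label, whereas the basal keratins KRT5 and KRT14 had medians of 1920 and 1540 CPM. Desmoplakin (DSP), of epithelial junctions, had medians of 40.7 CPM in MCF10A and 42.6 CPM in MDA-MB-231. VIM, a mesenchymal marker, had medians of 2620 CPM in MCF10A and 3970 CPM in MDA-MB-231, and KRT5 did not exceed 0.284 CPM in MDA-MB-231. These medians were scaled within each line. In a joint edgeR fit of normoxic T, VIM (log2FC 0.22, adjusted p = 0.665), DSP (-0.35, 0.622) and ZEB1 (1.14, 0.102) did not pass between lines. AXL, another mesenchymal marker, was higher in MDA-MB-231 (0.94, adjusted p = 0.00415). In P, AXL (1.09, adjusted p = 0.00112) and ZEB1 (1.53, adjusted p = 0.0287) passed. In MCF10A the highest normoxic KRT14 value, 1420 CPM, lay below the lowest hypoxic value, 1670 CPM, and for KRT17 these were 204 and 237 CPM. For KRT5 (2850 and 1640 CPM) and DSP (81.3 and 25.7 CPM) the values overlapped. By edgeR, KRT14 and KRT17 did not pass in H against N (adjusted p = 0.106 and 0.17 in T, 0.0753 and 0.199 in P). Both passed in HPP against N (0.00565 and 0.0102 in T, 0.00525 and 0.0299 in P). The part of the KRT14 and KRT17 shift in the results below was not tested. The second NPP total library of MCF10A had the lowest scaling factor, 0.764, and differed from its replicate in several members, so calls that compare it are also given without it.

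Of the oxygen sensors, EGLN3 rose in hypoxia in both lines, EGLN1 rose in MDA-MB-231 and EGLN2 passed no test. In MCF10A the EGLN1 change was of like size in H against N and in HPP against NPP. Whether it passed there depended on the comparison, the method and the libraries kept. For these differences, the promoters of the 3 hydroxylase genes are shown. Each line gives the 100 bases before the RefSeq start on the gene's own strand (GRCh38.p14), 5′ to 3′. The capitals mark ACGTG, on either strand, where it occurs.
EGLN1: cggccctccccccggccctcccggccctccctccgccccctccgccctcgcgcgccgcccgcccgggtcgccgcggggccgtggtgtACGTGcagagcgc
EGLN2: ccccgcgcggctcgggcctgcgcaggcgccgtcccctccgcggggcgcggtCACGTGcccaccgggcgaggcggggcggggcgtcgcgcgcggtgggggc
EGLN3: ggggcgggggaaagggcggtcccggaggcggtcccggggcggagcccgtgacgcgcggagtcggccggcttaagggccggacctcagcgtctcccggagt
The EGLN1 bases lie at chr1:231422288-231422387 (minus strand), those of EGLN2 at chr19:40799091-40799190 (plus strand) and those of EGLN3 at chr14:33951075-33951174 (minus strand). The EGLN1 core began 13 bases before the start. The EGLN2 promoter held CACGTG, a palindrome that counts as a match on each strand, at 49 and 48 bases before the start.

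In the 250 bases before the start, ACGTG or GCGTG on either strand occurred at least once in 43.2% of 35116 RefSeq promoters, and ACGTG in 18.5%. Of the 8 members with an entry, HIF1A, EPAS1 and EGLN1 had 1 match, EGLN2 had 2 that overlap, HIF3A had 3, and ARNT, EGLN3 and HIF1AN had 0, counting for each gene its promoter with the most matches. ARNT2 and VHL had no entry. A match is a description of the letters in this window and not a measured binding site.

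**Figure D1:**
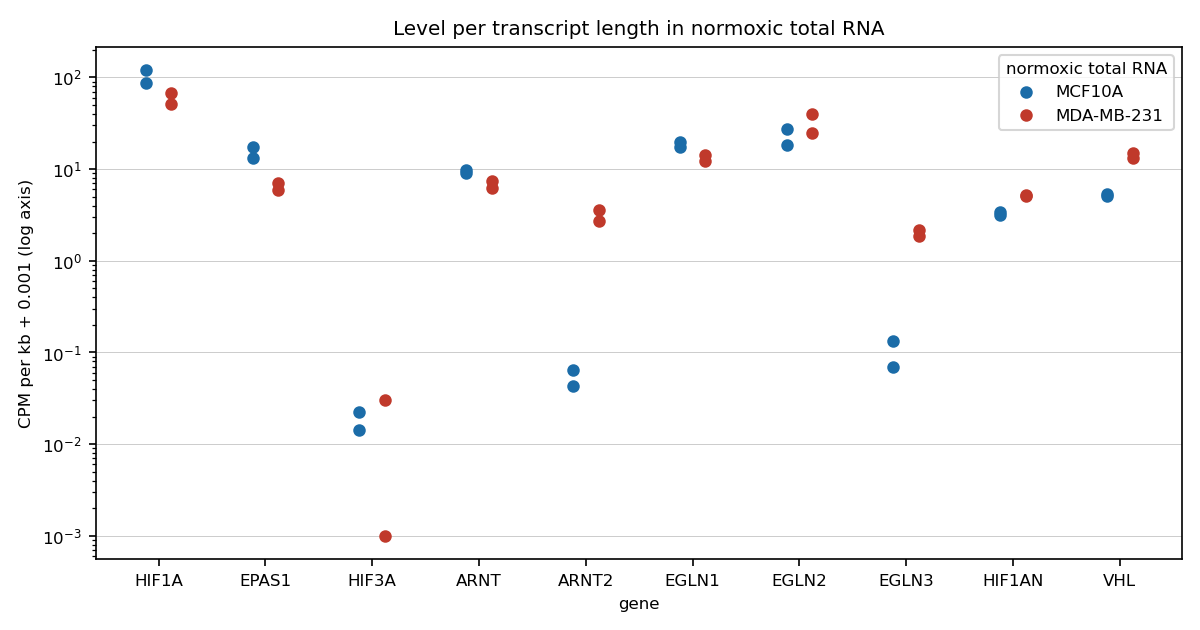
Level of each member in normoxic total RNA, as CPM per kilobase of the canonical transcript plus 0.001 on a log axis, with 1 point per library for MCF10A (blue) and MDA-MB-231 (red). HIF1A is the most abundant member in both lines, at 103.5 and 59.5 CPM per kb on average, and HIF3A the least abundant.

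In normoxic total RNA of MCF10A, the mean level per kilobase of transcript (± SD, n = 2) was 103.5 ± 22.9 CPM per kb for HIF1A, the alpha subunit found in most cells. EGLN2 followed with 22.8 ± 6.15, EGLN1 with 18.6 ± 1.56 and EPAS1 (HIF-2α) with 15.3 ± 3.05 CPM per kb. Among these 3, the ranges of mean ± SD overlapped between neighbours. ARNT (HIF-1β), the common beta subunit, had 9.45 ± 0.612, VHL 5.23 ± 0.124 and HIF1AN 3.27 ± 0.175 CPM per kb. The remaining members were rare: EGLN3 at 0.10 ± 0.046, ARNT2, a beta subunit best known from neural tissue, at 0.0530 ± 0.0156 and HIF3A at 0.0175 ± 0.00581 CPM per kb, and the ranges of mean ± SD of EGLN3 and ARNT2 overlapped.

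MDA-MB-231 had the same members at the top and the bottom. HIF1A had 59.5 ± 10.9 CPM per kb, EGLN2 32.1 ± 10.7, VHL 14.1 ± 1.39 and EGLN1 13.3 ± 1.31. ARNT had 6.82 ± 0.776, EPAS1 6.55 ± 0.800 and HIF1AN 5.20 ± 0.0643 CPM per kb. ARNT2 had 3.13 ± 0.588, EGLN3 2.01 ± 0.194 and HIF3A 0.0146 ± 0.0206 CPM per kb. These ranges overlapped for VHL and EGLN1, and for ARNT and EPAS1. The per-kilobase values were scaled within each line, and levels between the lines were compared in the joint fit alone.

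The lines differed most in ARNT2 and EGLN3. In the joint fit of all 32 libraries, ARNT2 mRNA in normoxic total RNA was higher in MDA-MB-231 than in MCF10A by a log2FC of 5.42 (SE 0.56, edgeR adjusted p = 9.42e-08) and EGLN3 by 3.81 (SE 0.37, adjusted p = 3.04e-08). EPAS1 was lower by a log2FC of -1.69 (SE 0.41, adjusted p = 0.00234), HIF1A by -1.26 (SE 0.37, adjusted p = 0.00985), EGLN1 by -0.95 (SE 0.25, adjusted p = 0.00431) and ARNT by -0.93 (SE 0.29, adjusted p = 0.0126). Thus 6 of 10 members passed the test, beside 40.7% of all genes tested. EGLN2 (0.02), HIF1AN (0.20) and VHL (0.96) did not, nor did HIF3A, which had too few counts for a fold. In polysomal RNA 5 of 10 passed, beside 45.4% of genes: ARNT2 (6.09), EGLN3 (4.86) and VHL (1.55) were higher in MDA-MB-231, and EPAS1 (-1.59) and HIF1A (-0.99) lower.

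These differences between lines depended on the scaling. TMM normalisation, which assumes that most genes do not differ, put MDA-MB-231 0.338 log2 units higher in scaling factor than MCF10A in normoxic total RNA, and so lowered its values by that amount. With library totals alone, 3 of 10 members passed in T: HIF1A fell short with a log2FC of -0.92 (adjusted p = 0.131), ARNT with -0.59 (adjusted p = 0.253) and EGLN1 with -0.61 (adjusted p = 0.199), while ARNT2, EGLN3 and EPAS1 passed. Without the second normoxic total library of MDA-MB-231, HIF1A (adjusted p = 0.0996), ARNT (0.107) and EGLN1 (0.0556) fell short and 3 of 10 passed, and without the first of MCF10A, HIF1A (0.0861) and ARNT (0.0635) did. In polysomal RNA HIF1A fell short without the second normoxic library of MCF10A (0.169) or either of MDA-MB-231 (0.116 and 0.128), VHL without the first of MCF10A (0.177) or the second of MDA-MB-231 (0.0780), and EPAS1 without the second of MCF10A (0.0630). Over the 25 settings run, left-out libraries among them, HIF1A passed in polysomal RNA in 20 (adjusted p up to 0.24), VHL in 22 and EPAS1 in 24. Each line came in a count table of its own, so line and processing run cannot be told apart.

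**Figure D2:**
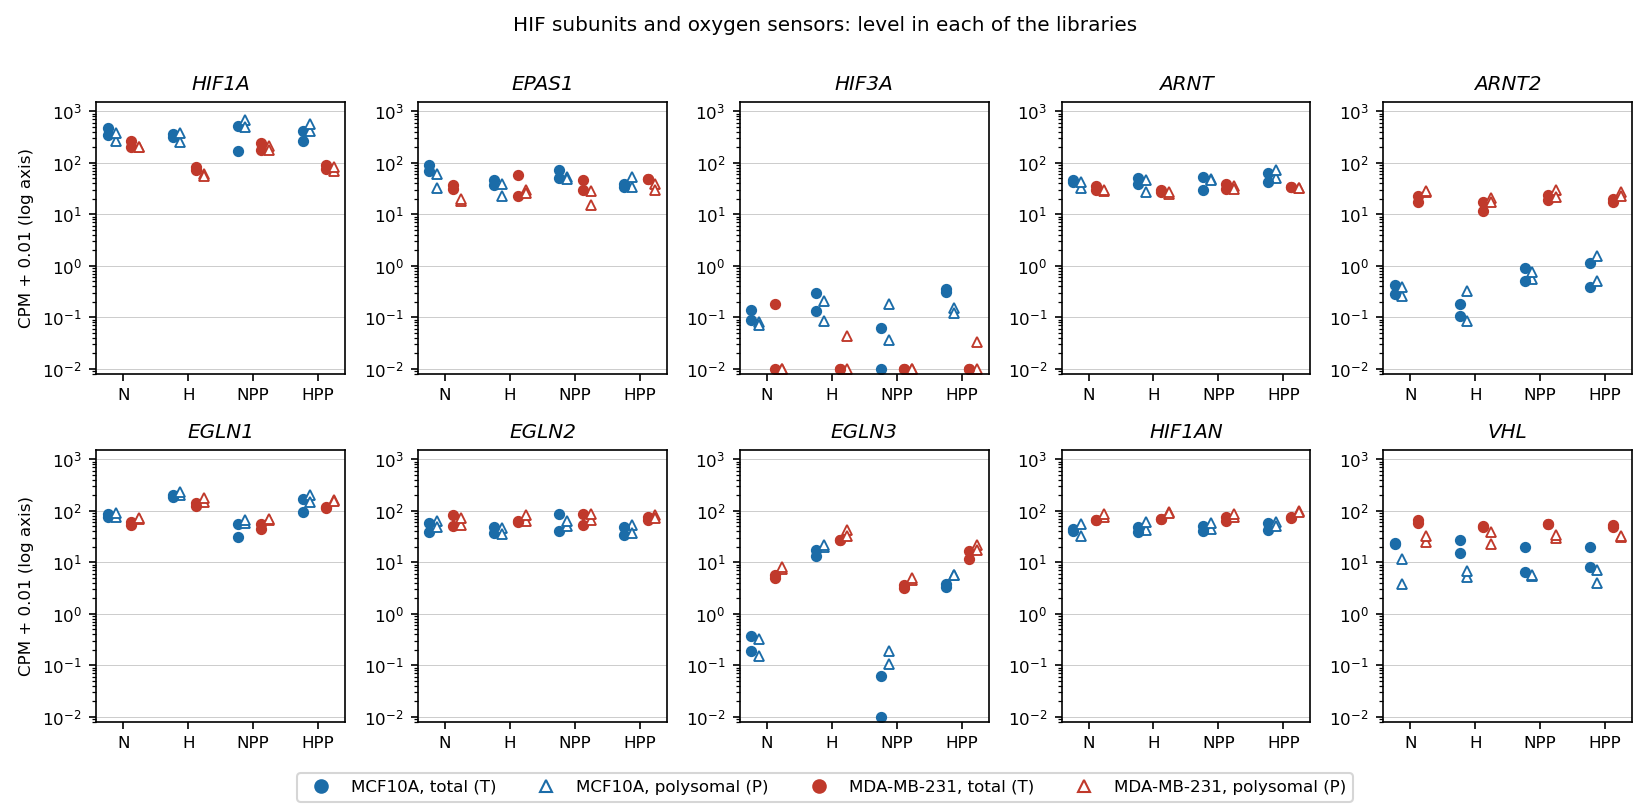
CPM plus 0.01 on a log axis for each member in each library, by treatment, with filled circles for total RNA and open triangles for polysomal RNA (blue, MCF10A; red, MDA-MB-231; 2 libraries per group). EGLN3 and EGLN1 are higher in the H and HPP libraries than in N and NPP in both lines, and HIF1A is lower in MDA-MB-231.

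EGLN3 (PHD3) encodes the prolyl hydroxylase most strongly induced by HIF in many cells, and it had the greatest response here. In MCF10A total RNA it was at 0.183 and 0.358 CPM in N and at 13.1 and 17.6 CPM in H. In polysomal RNA it was at 0.314 and 0.140 CPM in N and at 19.5 and 21.8 CPM in H. The N and H libraries were far apart in both fractions, and the normoxic values rest on few reads: 24 counts over the pair of N libraries in T, against 1275 in H. Their ratio was 54.7 (95% exact interval for counting error alone, 36.6 to 85.6), and 102.8 (63.1 to 180) in P.

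The corresponding log2FC of EGLN3 in MCF10A was 5.79 (SE 0.51, adjusted p = 0.000271) in T and 6.56 (SE 0.53, adjusted p = 0.000126) in P. It was the 1 of 10 members called in H against N in each fraction of MCF10A, beside 1.54% of all genes in T and 1.49% in P. Of the 13124 genes tested, 0.175% had a larger absolute change in T and 0.114% in P.

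In MDA-MB-231, EGLN3 started from a higher level and rose less. Total RNA had 5.06 and 5.80 CPM in N and 27.3 and 27.5 CPM in H. Polysomal RNA had 7.32 and 8.23 CPM in N and 41.7 and 32.2 CPM in H. The log2FC was 2.34 (SE 0.21, adjusted p = 3.04e-05) in T and 2.25 (SE 0.20, adjusted p = 3.41e-05) in P, about 5.07-fold and 4.74-fold. Here 3 of 9 members tested were called in each fraction, beside 1.27% of all genes in T and 2.29% in P.

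The hypoxic rise of EGLN3 differed between the lines by the test of the difference itself. The log2FC in MDA-MB-231 was smaller than in MCF10A in T (difference -3.41, SE 0.46, adjusted p = 0.00115) and in P (difference -4.42, SE 0.48, adjusted p = 0.000127). It was 1 of 10 members whose hypoxic response differed between lines, beside 0.266% of genes in T and 0.329% in P. The hypoxic levels of the lines lay closer together than the normoxic ones.

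PP242 was given in both oxygen states, so HPP against NPP compares hypoxia with normoxia in other libraries than H against N. Both contrasts came from the same fit of 16 libraries per line, so they were not independent tests. In MCF10A, EGLN3 was at 0.0517 and 0 CPM in NPP total RNA and at 3.74 and 3.36 CPM in HPP, and at 0.181 and 0.0966 CPM in NPP and 5.69 and 5.66 CPM in HPP polysomal RNA. The NPP total libraries held 2 counts together, against 221 in HPP, a ratio of 111.3 with an exact counting interval of 30.4 to 925, and in P the ratio was 41.3 (22.9 to 83.4). Both comparisons passed (adjusted p = 0.000411 in T and 0.000356 in P), but in T not when only those 4 libraries were fitted (adjusted p = 0.667). Without the second NPP total library the call in T held.

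In MDA-MB-231, EGLN3 was at 3.11 and 3.56 CPM in NPP and 16.7 and 11.9 CPM in HPP total RNA, and at 4.5 and 4.99 CPM in NPP and 22.3 and 17.3 CPM in HPP polysomal RNA. The log2FC of HPP against NPP was 2.10 (SE 0.21, adjusted p = 8.11e-05) in T and 2.06 (SE 0.20, adjusted p = 7.63e-05) in P. Called members numbered 2 of 10 in MCF10A and 3 of 9 in MDA-MB-231 in each fraction, beside 4.17% (T) and 7.44% (P) of genes in MCF10A, and 2.72% (T) and 3.55% (P) of those in MDA-MB-231.

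Under hypoxia, EGLN3 was lower with PP242 than without it in both lines, a contrast chosen after these levels had been seen. The log2FC of HPP against H in MCF10A was -2.11 (SE 0.41, adjusted p = 0.0163) in T and -1.86 (SE 0.41, adjusted p = 0.0217) in P. In MDA-MB-231 it was -0.94 (SE 0.19, adjusted p = 0.0178) in T and -0.90 (SE 0.19, adjusted p = 0.00829) in P. EGLN3 was the 1 member called at the main settings, beside 3.74% and 6.5% of genes in MCF10A, and 3.78% (T) and 11.5% (P) of those in MDA-MB-231. The HPP and H libraries of EGLN3 did not overlap in any of the 4 cases. Nor did those of EGLN1 in T and P of MCF10A or in T of MDA-MB-231, where HPP also lay lower. Other members lay higher in HPP, among them ARNT in P of both lines. With 2 libraries a group such a gap is no test, and the share of all genes that show it was not counted. The calls did not hold when single libraries were left out: in MCF10A each of the 4 libraries compared ended the call, with adjusted p of up to 0.146 in T and 0.168 in P, and in MDA-MB-231 the second HPP library of either fraction did so (adjusted p = 0.228 in T and 0.102 in P), as did the second H library in T and the first in P.

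In normoxia with PP242 (NPP against N) no member passed in either line or fraction by edgeR, beside 0.648% (T) and 0.823% (P) of genes in MCF10A, and 0.555% (T) and 1.95% (P) of those in MDA-MB-231. In MCF10A, 2 members in T and 0 in P had an unadjusted p under 0.05, in MDA-MB-231 1 in each fraction. Without the second NPP total library of MCF10A, 0 members passed in T as well. DESeq2 called 0 members in 3 of these comparisons and 1, EGLN3, in polysomal RNA of MDA-MB-231 (adjusted p = 0.0410). There the edgeR log2FC of EGLN3 was -0.71 (SE 0.21, adjusted p = 0.109), and in T it was -0.70 (SE 0.22, adjusted p = 0.218), with the NPP libraries below the N libraries in both fractions.

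EGLN1 (PHD2), the main hydroxylase that marks HIF-1α in normoxia, rose in MDA-MB-231. In total RNA it was at 61.6 and 53.6 CPM in N and at 142 and 126 CPM in H. In polysomal RNA it was at 69.2 and 72.2 CPM in N and at 149 and 181 CPM in H. The log2FC was 1.22 in both fractions (SE 0.14; adjusted p = 0.000304 in T and 0.000340 in P), about 2.33-fold. With PP242 it was 1.2 (SE 0.14, adjusted p = 0.000400) in T and 1.24 (SE 0.14, adjusted p = 0.000279) in P, and the hypoxic libraries lay above the normoxic ones in every comparison.

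In MCF10A the EGLN1 levels moved by a like amount with a wider error. Total RNA had 75.9 and 85.5 CPM in N and 205 and 187 CPM in H, and polysomal RNA 75.2 and 91.9 CPM in N and 208 and 232 CPM in H. These groups did not overlap, but the log2FC of 1.28 (SE 0.34, adjusted p = 0.107) in T and 1.40 (SE 0.34, adjusted p = 0.0722) in P did not pass in the fit of all 16 libraries. DESeq2 called both (adjusted p = 0.00389 and 0.000815), as did edgeR with the replicate block within each fraction (adjusted p = 0.0393 and 0.0227). HPP against NPP passed in T with 1.61 (SE 0.34, adjusted p = 0.0239) and in P with 1.51 (SE 0.34, adjusted p = 0.0221). Without the second NPP total library, the call in T was lost (log2FC 1.29, adjusted p = 0.0798) and EGLN1 passed in H against N in T (adjusted p = 0.0266) and in P (adjusted p = 0.0163). Leaving out the first HPP total library also ended the call of HPP against NPP in T (adjusted p = 0.128), and in P each of the 4 libraries compared did so (adjusted p 0.0592 to 0.198).

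EGLN2 (PHD1), the third prolyl hydroxylase, passed the test in no comparison. In MCF10A total RNA it was at 38.8 and 57.1 CPM in N and at 36.5 and 47.7 CPM in H. In MDA-MB-231 it was at 51.5 and 83.2 CPM in N and at 62.5 and 61.9 CPM in H. The replicates differed as much as the groups. A readthrough gene, RAB4B-EGLN2, shares 2012 exon bases with EGLN2 on the same strand and had at most 31 counts in a library. HIF1AN and VHL did not pass in any hypoxia comparison either. HIF1AN in MDA-MB-231 was at 66.6 and 67.8 CPM in N and 71.2 and 70.2 CPM in H, with a log2FC of 0.07 (SE 0.13, adjusted p = 0.880).

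HIF1A mRNA fell in hypoxia in MDA-MB-231. In total RNA it was at 265 and 204 CPM in N and at 83.7 and 73.7 CPM in H. In polysomal RNA it was at 201 and 202 CPM in N and at 61.4 and 55.2 CPM in H, a log2FC of -1.79 (SE 0.19, adjusted p = 0.000107), or 3.46-fold lower. In the libraries with PP242, HIF1A was at 247 and 180 CPM in NPP and 89.2 and 74.6 CPM in HPP total RNA, and at 212 and 177 CPM in NPP and 68.4 and 82.4 CPM in HPP polysomal RNA. The log2FC was -1.38 (SE 0.18, adjusted p = 0.00109) in T and -1.37 (SE 0.18, adjusted p = 0.00117) in P. The highest of the 8 hypoxic libraries, 89.2 CPM, lay below the lowest of the 8 normoxic ones, 177 CPM.

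In MCF10A total RNA the HIF1A groups overlapped. It had 472 and 345 CPM in N, 367 and 320 CPM in H, 512 and 170 CPM in NPP and 410 and 259 CPM in HPP. Polysomal RNA had 269 and 373 CPM in N, 253 and 386 CPM in H, 679 and 502 CPM in NPP and 408 and 575 CPM in HPP. There both PP242 groups lay above N and HPP lay above H, with log2FC against N of 0.88 (SE 0.46, adjusted p = 0.463) for NPP and 0.61 (SE 0.46, adjusted p = 0.369) for HPP, which did not pass. The log2FC of H against N was -0.25 (SE 0.46, adjusted p = 1) in T and -0.01 (SE 0.46, adjusted p = 0.998) in P. The response of HIF1A was not shown to differ between the lines: the difference was -1.28 (SE 0.52, adjusted p = 0.528) in T and -1.87 (SE 0.53, adjusted p = 0.207) in P, though DESeq2 called it in P (-1.86, adjusted p = 0.0362), as did edgeR with the replicate block within each fraction (-1.86, adjusted p = 0.0291).

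**Figure D3:**
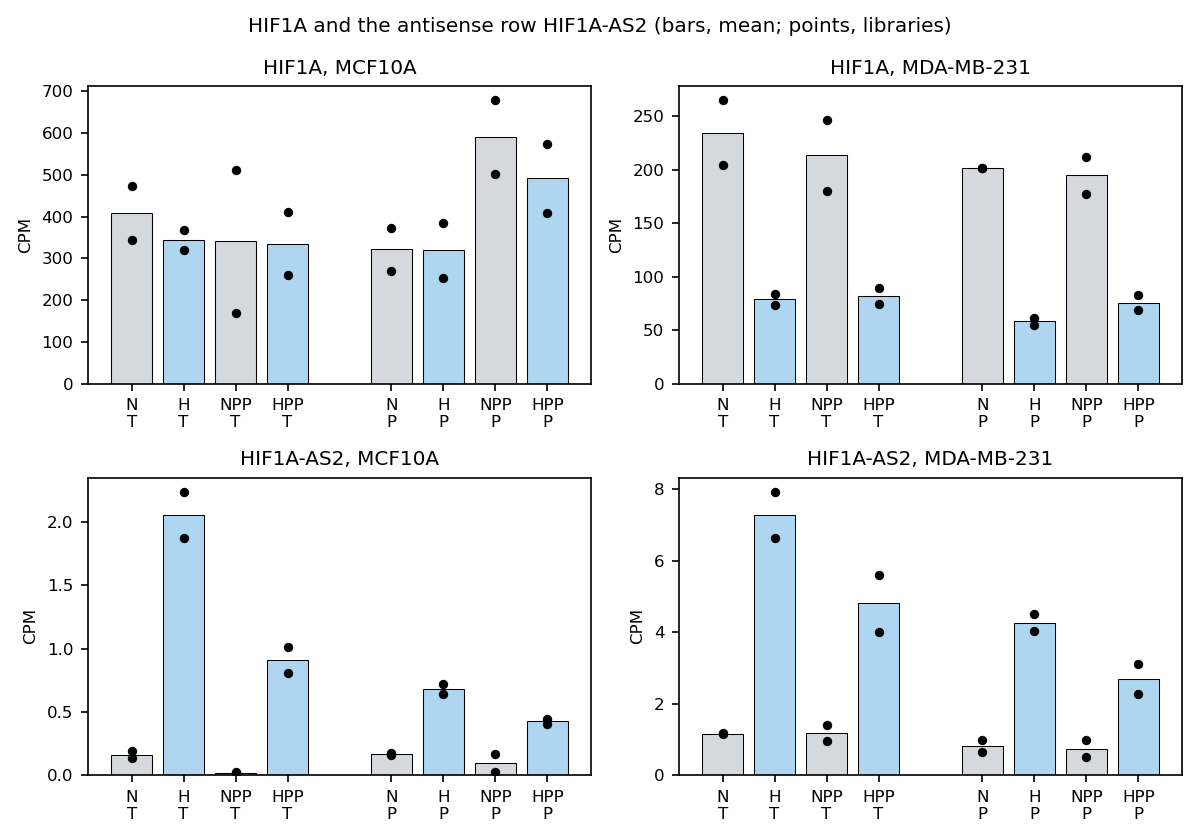
CPM of HIF1A (top) and of the antisense row HIF1A-AS2 (bottom) in MCF10A (left) and MDA-MB-231 (right), by treatment and fraction. Bars give the mean of 2 libraries, points the libraries, and each panel has its own axis from 0. In MDA-MB-231 the blue hypoxic bars are low for HIF1A and high for HIF1A-AS2.

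HIF1A lies at chr14:61695513-61748259 (GRCh38, plus strand), and 2 antisense rows of the files overlap it. The row named HIF1A-AS2, called HIF1A-AS3 in a later GENCODE release, lies on the opposite strand at chr14:61707298-61751163 and shares 299 exon bases with HIF1A. It moved against HIF1A in MDA-MB-231: total RNA had 33 and 20 counts in N and 244 and 174 in H. In the fit of all gene classes, its log2FC was 2.64 (SE 0.32, adjusted p = 0.000586) in T and 2.36 (SE 0.33, adjusted p = 0.00195) in P, beside 1.06% and 1.91% of genes called. With PP242 it was 2.07 (SE 0.31, adjusted p = 0.00335) in T and 1.86 (SE 0.33, adjusted p = 0.00913) in P, beside 2.01% and 2.79%. The counts reached 10.8% of those of HIF1A in a hypoxic library, against 0.446% and 0.557% in the N total libraries.

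In MCF10A, HIF1A-AS2 had 5 and 9 counts in N and 80 and 91 in H total RNA (log2FC 3.61, SE 0.62, adjusted p = 0.0153), beside 1.14% of genes called. In P the log2FC was 1.99 (SE 0.62, adjusted p = 0.186), which did not pass, beside 1.11% of genes. HPP against NPP passed in T (adjusted p = 0.00673, with 56 counts against 1 over the pairs of libraries, a ratio of 56.4 with an exact counting interval of 9.72 to 2.27e+03; without the second NPP library, adjusted p = 0.0384) and not in P (adjusted p = 0.0936), beside 2.76% and 5.21% of genes. HIF1A-AS1, which overlaps the start of HIF1A, did not pass in MCF10A (adjusted p = 0.301 in T) and had too few counts to be tested in MDA-MB-231. The libraries were not stated to keep strand, so reads of the shared bases cannot be told apart between HIF1A and these rows. The rows EGLN3-AS1, EGLN1P1 and VHLL were near 0 and untested.

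At the main edgeR settings, the other subunits did not pass in any hypoxia comparison. EPAS1 encodes the alpha subunit HIF-2α. In MCF10A total RNA it was at 67.8 and 90.0 CPM in N, 45.6 and 36.2 CPM in H and 39.4 and 34.1 CPM in HPP. The groups did not overlap, yet the log2FC was -0.95 (SE 0.36, adjusted p = 0.328) for H and -1.10 (SE 0.36, adjusted p = 0.0637) for HPP. DESeq2 called EPAS1 in the latter (-1.04, adjusted p = 0.0332), as did edgeR with the replicate block within each fraction (-1.12, adjusted p = 0.0142). In MDA-MB-231 polysomal RNA EPAS1 was at 18.4 and 20.1 CPM in N, 29.6 and 25.8 CPM in H and 38.8 and 29.2 CPM in HPP, with log2FC of 0.52 (SE 0.36, adjusted p = 0.490) and 0.82 (SE 0.36, adjusted p = 0.12). The latter passed with no filter on low counts (0.90, adjusted p = 0.000466) and with the replicate block (0.78, adjusted p = 0.0460). The difference between lines in the H response was 1.25 (SE 0.57, adjusted p = 0.631) in T.

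ARNT was the steadiest subunit in MDA-MB-231, at 24.4 to 38.3 CPM over 16 libraries. ARNT2 was at 11.7 to 30.1 CPM there and at 0.0751 to 1.51 CPM in MCF10A, where it had 2 to 67 counts in a library. In P of MCF10A, ARNT2 passed in HPP against H with the replicate block within each fraction (adjusted p = 0.0391), and not at the main settings. HIF3A, the alpha subunit that can antagonise the others, had 0 to 12 counts in MCF10A. No fold is given for HIF3A, since most of its groups lie near the count that a library can resolve.

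Against normoxia without the drug, HPP called 1 of 10 members in T and 2 of 10 in P of MCF10A, where 14.9% and 22.2% of all genes were called, and 3 of 9 in each fraction of MDA-MB-231, where 13.2% and 19.4% were. EGLN3 had log2FC of 3.68 (T) and 4.70 (P) in MCF10A. In MDA-MB-231 these were 1.40 and 1.34. EGLN1 had 0.71 and 1.08 in MCF10A, of which the second passed (adjusted p = 0.0380), and 1.00 and 1.19 in MDA-MB-231. HIF1A had -1.52 and -1.42 in MDA-MB-231. These comparisons share their N libraries with H against N. The EGLN1 call in MCF10A was lost without any of 9 of the 16 libraries, with adjusted p from 0.0545 to 0.178.

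Translational efficiency (Te), tested as the change in P minus the change in T, passed for no member in H, HPP or NPP of either line by edgeR or DESeq2. Of 30 member tests in MCF10A, 1 had an unadjusted p under 0.05, and of 27 in MDA-MB-231 none did. By edgeR, 0% of genes passed in MCF10A for H, HPP and NPP, with 23, 433 and 296 genes at an unadjusted p under 0.05 and 0, 127 and 91 called by DESeq2. In MDA-MB-231 0.0148%, 0.696% and 0.34% passed. The Te differences of members lay between -0.22 and 0.46 in MDA-MB-231, with SE of 0.18 to 0.50. In MCF10A they lay between -0.67 and 2.38 over all members, with SE of 0.44 to 1.46, and the highest value was that of EGLN3. HIF3A, ARNT2 and EGLN3 had counts near 0 in some groups (2 and 0 for EGLN3 in NPP total RNA). Leaving these members out, the differences lay between -0.40 and 1.14, with SE of 0.44 to 0.88. The highest was that of HIF1A in NPP (1.14, SE 0.65, adjusted p = 0.990), which was 0.54 without the second NPP total library and 2.15 without the first, and did not pass in either case. Since no gene passed in MCF10A, a member that did not pass there is not shown to be alike in T and P. The titles give the T and P libraries of a treatment and replicate the same number, and with that number as a replicate block 0 members passed again in each of the Te comparisons. The EGLN1 change of 1.22 in MDA-MB-231 H was equal in T and P to 2 decimals.

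In normoxia itself VHL had the lowest ratio of polysomal to total RNA among the members tested in each line. VHL is the substrate receptor of the ligase that degrades hydroxylated HIF alpha. In MDA-MB-231 it was at 57.8 and 66.4 CPM in T and at 24.9 and 32.6 CPM in P, a log2FC of P against T of -1.11 (SE 0.20, adjusted p = 0.00340). It was 1 of 9 members called, beside 13.1% of genes, and the call was lost without the first N polysomal library (-0.89, adjusted p = 0.0538). With the title number as a replicate block, VHL passed (-1.12, adjusted p = 0.00170) and so did EPAS1 (-0.81, adjusted p = 0.0496). In MCF10A VHL was at 23.5 and 22.7 CPM in T and at 3.81 and 11.7 CPM in P. The log2FC was -1.57 (SE 0.64, adjusted p = 0.359). There 0 of 10 members and 0% of genes passed by edgeR, with 1 member and 1660 genes at an unadjusted p under 0.05, and DESeq2 called 0 members and 40 genes. With the replicate block within each fraction, VHL (-2.31, adjusted p = 0.0296) and EPAS1 (-1.19, adjusted p = 0.0331) passed, and with the title number as a replicate block neither did (adjusted p = 0.580 for both).

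The partners of these genes were taken from lists of the pathway. Of 12 genes of HIF turnover outside the members (elongins, CUL2, RBX1, HSP90 and others), 0 passed in H against N in T of either line by edgeR, beside 1.54% and 1.27% of all genes, with 2 in MCF10A and 1 in MDA-MB-231 at an unadjusted p under 0.05, and DESeq2 called 0 in both. In HPP against N in P, 1 of 12 fell in MCF10A and 2 of 12 in MDA-MB-231, below the 22.2% and 19.4% of all genes called. RACK1 (GNB2L1 in the files), which links HIF-1α to a VHL-independent ligase, fell by 2.69 log2 units in MCF10A (adjusted p = 0.00818) and by 1.54 in MDA-MB-231 (adjusted p = 2.87e-05). Elongin B (TCEB2), an adaptor of the VHL ligase, fell by 0.86 in MDA-MB-231 (adjusted p = 0.00630). The mRNAs with a 5′ terminal oligopyrimidine tract, which mTOR keeps on polysomes, fell in the same comparison in 4 of 6 and 6 of 6 genes, with medians of -2.36 and -1.73 beside -0.04 and 0.01 for all genes. HPP against N joins hypoxia and PP242. Of the 12 turnover genes in P, NPP against N called 0 in MCF10A and 1 in MDA-MB-231, beside 0.823% and 1.95% of all genes. HPP against NPP called 1 and 0, beside 7.44% and 3.55%. HPP against H called 0 and 4, beside 6.5% and 11.5%. All of these called genes fell.

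Of 6 cofactor genes, 0 passed in H against N in T by edgeR, beside the same shares of all genes, with 2 in MCF10A and 1 in MDA-MB-231 at an unadjusted p under 0.05, and DESeq2 called 0 and 1. In HPP against N in P, 3 of 6 were called in MCF10A and 2 of 6 in MDA-MB-231, beside 22.2% and 19.4% of all genes. In MCF10A, CITED2, which competes with HIF for the coactivator CBP/p300, rose by 3.03 (SE 0.45, adjusted p = 0.00103) and PKM, pyruvate kinase, by 1.34 (adjusted p = 0.0346), while CDK8, a Mediator kinase, fell by 1.68 (adjusted p = 0.000845). CITED2 in P of MCF10A also rose with PP242 in normoxia, by 2.31 in NPP against N (adjusted p = 0.0315). It did not pass in HPP against NPP (0.72, adjusted p = 0.339) or in H against N (1.53, adjusted p = 0.116). In MDA-MB-231 CITED4 rose by 1.47 (adjusted p = 0.00242) and PKM by 0.49 (adjusted p = 0.0285). CITED4 was at only 0.807 to 3.05 CPM in the libraries of that line. Of 14 other genes of the bHLH-PAS and coactivator families, 12 could be tested in each line. In HPP against N in P, 3 and 1 of them were called, near or below those shares. AHRR, the repressor of the aryl hydrocarbon receptor, fell by 0.99 in H total RNA of MDA-MB-231 (adjusted p = 0.0150) and by 2.15 in HPP polysomal RNA of MCF10A (adjusted p = 0.00283). In the latter comparison NPAS1, at 0.441 to 3.86 CPM in the MCF10A libraries, had a log2FC of 1.85 (adjusted p = 0.0452). NPAS3 was also called there (adjusted p = 0.0313), with no fold given since it reached at most 0.474 CPM in any MCF10A library. SIM2 rose by 0.93 in MDA-MB-231 (adjusted p = 0.0201), where it was at 1.79 to 4.64 CPM.

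Known HIF target genes describe the hypoxic state of the libraries, though the list was chosen with earlier results of these data known. Of 26 targets, 16 rose in H total RNA of MCF10A and 19 in MDA-MB-231, and 0 fell, beside 1.54% and 1.27% of all genes called, with medians of 1.93 and 1.57 beside -0.03 and -0.02 for all genes. CA9, a carbonic anhydrase used as a hypoxia marker, had a log2FC of 5.95 (SE 0.48) in MCF10A and 5.46 (SE 0.67) in MDA-MB-231. NDRG1 rose by 4.12 and 3.75, TMEM45A by 4.12 in MCF10A and BNIP3, a mitophagy receptor, by 2.64 in MDA-MB-231. In HPP polysomal RNA 20 and 21 targets rose, beside 22.2% and 19.4% of all genes called, led by CA9 (6.17 and 5.96) and NDRG1 (5.16 and 4.23), with TMEM45A (4.70) in MCF10A and ANKRD37 (3.30) in MDA-MB-231. In MDA-MB-231 CA9 had 0.0568 to 1.02 CPM in the normoxic libraries and 13 to 34.6 CPM in the hypoxic ones. The size of its folds in that line therefore rests on few normoxic reads. Between HPP and H, edgeR called 0 of 26 targets in T and P of MCF10A and in T of MDA-MB-231, beside 3.74%, 6.5% and 3.78% of all genes. There 4, 5 and 5 had an unadjusted p under 0.05, and DESeq2 called 2, 4 and 1. In P of MDA-MB-231, 2 of 26 rose, ANKRD37 (0.58) and LOX (0.54), beside 11.5% of all genes called.

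Over the 16 libraries of a line, the genes most like EGLN3 among 12374 ranked were EGLN1 (Pearson r of log2 CPM 0.943 in MCF10A and 0.942 in MDA-MB-231), AK4, an adenylate kinase (0.932 and 0.959), and BHLHE40, a bHLH repressor (0.931 and 0.958). Those most like HIF1A were OPA1, a mitochondrial fusion GTPase (0.929 and 0.912), U2SURP, a splicing factor (0.873 and 0.944), and CYP1B1, a cytochrome P450 (0.872 and 0.897). These values describe the libraries, which share treatments and sequencing depth.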

How the data were processed

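RNA-Seq was made from total and polysomal RNA of MCF10A and MDA-MB-231. The deposited values are expected counts per gene, which the authors estimated with RSEM after STAR mapping of poly(A)-selected, paired-end TruSeq v2 libraries to GRCh38 with GENCODE. The submitters' processing notes name GRCh37, but the gene versions in the files belong to a GRCh38 annotation. The deposited expected counts were whole numbers and needed no rounding. Every column matched a sample by its barcode (0 without a sample).

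Protein-coding genes that passed filterByExpr were TMM-scaled and fitted with edgeR 4.0.16 in R 4.3.3 (glmQLFit, glmQLFTest), with 16 libraries in 8 groups per line, and all 32 jointly for the lines. P-values were adjusted over all genes tested by Benjamini-Hochberg, with 0.05 as the threshold. With 2 libraries a group, an exact permutation test of a value cannot go below p = 0.333, so the fit across genes was used. Groups of 2 libraries said not to overlap are a description of levels and not a test. The share of all genes so separated was not counted. CPM was scaled within each line, and per-kilobase levels used canonical transcript lengths of a GENCODE release later than the authors'. An exact binomial interval was used for ratios of low counts. The fit was tested on simulated data. P-values weigh a difference between groups against the spread between libraries, which was estimated over all groups of a fit with information shared across genes. HIF1A-AS2 was taken from a fit of all gene classes, since it is no protein-coding gene. Alternatives were DESeq2 1.42.0, RLE scaling, no filter, all gene classes, a length offset, the replicate block, only the libraries compared, an adjusted p under 0.10, and leaving out each library. HPP against H, scaling by library totals, the block by title number and the left-out libraries for HIF1A-AS2 were added after the data had been seen.

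The members and lists were chosen with earlier results of these data known. Named genes were the members, up to 3 called genes per list with the largest change in H (T) and HPP (P), the 3 genes most correlated with HIF1A and with EGLN3, and rows overlapping a member. Promoters came from RefSeq (GRCh38.p14). Protein, NanoString and functional data were not analysed here.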

Additional observations from a re-analysis of the deposited data

Results flagged for a closer look

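The hypoxic response of EGLN3 differed between the lines in the joint fit, by -3.41 log2 units in T (edgeR adjusted p = 0.00115) and by -4.42 in P (adjusted p = 0.000127), MDA-MB-231 minus MCF10A. EGLN3 rose in both lines, and the difference rests on a normoxic level of 24 counts in T and 16 in P over the pairs of MCF10A libraries. With each N or H library left out in turn it lay between -4.00 and -3.03 in T and between -4.98 and -3.87 in P, and passed each time. Groups of 2 libraries were too small to be checked for outlying samples.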

How the results depend on the processing

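None of the members' calls changed sign under any alternative run. Values of called members passed again in 348 cases and fell short in 12 under the other settings, and in 681 and 39 cases with a library left out. The replicate numbers did not meet the condition for pairing over a whole line, since correlations of replicate differences between groups ran from -0.641 to 0.778 in MCF10A and from -0.187 to 0.348 in MDA-MB-231, with 11 and 19 of 28 over 0.1. Within total RNA of MCF10A, however, all of them were positive (0.283 to 0.778). The title number, shared by T and P, gave 2 in place of 1 in P against T of MDA-MB-231 (EPAS1 added), an alternative chosen after seeing the data. With the replicate block over a line no count of members moved by over 1.5 times. With the replicate block within each fraction, 2 members were called in place of 1 in H (EGLN1 added) and HPP (EPAS1 added) against N in T, H against N in P (EGLN1 added) and HPP against H in P (ARNT2 added) of MCF10A, and in the line difference of the H response in P (HIF1A added, adjusted p = 0.0291), and 2 in place of 0 in P against T of MCF10A (EPAS1 and VHL). DESeq2 called 2 in place of 1 in H against N (T and P), HPP against N (T) and the line difference of the H response (P), 1 in place of 0 in NPP against N in P of MDA-MB-231, and 8 in place of 5 between lines in P. The length offset gave 2 in place of 1 in H against N of MCF10A (T and P) and 3 in HPP against N (T). RLE scaling and no filter gave 2 in H against N in P of MCF10A, and no filter gave 2 in P against T of MDA-MB-231. With adjusted p under 0.10 it was 2 in HPP against N (T) and H against N (P) of MCF10A, and 8 between lines in P. With only the 4 libraries compared it was 2 in H against N (T), 1 in HPP against N (P) and 0 in HPP against NPP (T) and in HPP against H (T and P) of MCF10A, and 0 in HPP against H (T) of MDA-MB-231. Library totals without TMM gave 3 in place of 6 between lines in T.

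With each library left out, the counts in MCF10A ran from 1 to 2 for H, HPP and HPP against NPP in either fraction, and from 0 to 1 for HPP against H. In MDA-MB-231 they ran from 0 to 1 for HPP against H and from 0 to 2 for P against T, and stayed at 3 for H against N and HPP against NPP. Between lines the T counts lay between 3 and 6, the P counts between 3 and 7. With 2 libraries a group and few normoxic EGLN3 counts in MCF10A, the size of the hypoxic rise of EGLN3 there is less certain than its direction.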
